A study of Mus musculus with 8 samples.

Results

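The 10 genes described here mark dendritic cells of the mouse sciatic nerve, or serve the route by which dendritic cells show captured antigen to CD8+ T cells. They were chosen by symbol and are Batf3, Wdfy4, Flt3, Irf8, Irf4, Zbtb46, Cd209a, Xcr1, Clec9a and Il12b. They make up 10 of the 30406 genes that the 4 single-cell libraries share. CD45+/CD11b+ cells were sorted from sciatic nerves of C57BL/6JolaHsd mice of both sexes, with Ly6G+ cells left out at the early time, and were tagged with hashtag antibodies so that several samples could be read in a library. In the PSNL (partial sciatic nerve ligation) groups, taken at 1 and 15 weeks, part of the nerve had been tied off, an injury that does not resolve. In the crush groups, taken at the same times, the nerve had been squeezed and regenerates, whereas in the sham group, taken at 1 week, the nerve had been exposed and not touched. The 13 hashtag samples were 2 sham, 2 PSNL and 2 crush samples at 1 week (a female and a male each), 4 PSNL samples at 15 weeks (F1, F2, M1 and M2) and 3 crush samples at 15 weeks (F1, F2 and M1). The labels give no transgene or knockout in any group. Whether a hashtag stands for a single mouse or for pooled mice is not given in the sources used here, so the p-values measure the spread between hashtag samples, which may be technical.

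Conventional dendritic cells take up antigen in tissue, move to lymph nodes through the chemokine receptor Ccr7 and activate T cells there. Type 1 cells (cDC1) need the transcription factors Irf8 and Batf3, bind dead cells through the lectin Clec9a, carry the chemokine receptor Xcr1 and cross-present, that is, they load antigen from outside the cell on MHC class I for CD8+ T cells, a step that needs the vesicle protein Wdfy4. Type 2 cells (cDC2) rely more on Irf4, present mainly to CD4+ T cells and often carry the lectin Cd209a, as cells that arise from monocytes can. Flt3, the receptor of the growth factor Flt3 ligand, and the transcription factor Zbtb46 are shared by both types and set them apart from macrophages. Il12b encodes a subunit shared by the cytokines IL-12 and IL-23. The sort asked for CD11b, of which cDC1 carry little, so shares of cDC1 refer to the sorted cells and not to the nerve.

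The promoters of Clec9a, Cd209a and Xcr1, the 3 surface receptors that told the dendritic classes apart, are shown, from 250 bases before to 50 bases after the RefSeq gene start on GRCm38.p6, written 5′ to 3′ on the strand of the gene. Capitals mark matches to the motifs that were searched. Clec9a lies on the + strand, and its window is chr6:129408612-129408911. Cd209a and Xcr1 lie on the - strand, with windows at chr8:3748935-3749234 and chr9:123861980-123862279.
Clec9a: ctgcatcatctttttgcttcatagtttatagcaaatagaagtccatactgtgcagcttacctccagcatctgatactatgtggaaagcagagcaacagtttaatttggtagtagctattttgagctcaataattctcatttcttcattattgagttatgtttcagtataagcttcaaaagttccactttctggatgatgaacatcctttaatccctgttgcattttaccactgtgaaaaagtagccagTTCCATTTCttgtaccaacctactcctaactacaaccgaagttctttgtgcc
Cd209a: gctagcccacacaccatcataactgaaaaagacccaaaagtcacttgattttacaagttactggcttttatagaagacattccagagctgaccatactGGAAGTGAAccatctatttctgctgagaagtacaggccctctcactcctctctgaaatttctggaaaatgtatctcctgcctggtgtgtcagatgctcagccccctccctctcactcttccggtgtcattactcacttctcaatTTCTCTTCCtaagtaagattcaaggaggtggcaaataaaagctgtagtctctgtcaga
Xcr1: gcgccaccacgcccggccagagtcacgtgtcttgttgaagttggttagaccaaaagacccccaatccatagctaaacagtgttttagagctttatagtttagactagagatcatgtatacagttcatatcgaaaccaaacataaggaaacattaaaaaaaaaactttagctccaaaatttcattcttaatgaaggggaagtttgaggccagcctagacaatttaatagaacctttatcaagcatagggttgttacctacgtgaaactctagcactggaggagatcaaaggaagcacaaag
The motifs searched on both strands were that of AP-1 (TGANTCA), the family of Batf3, the interferon-stimulated element bound by interferon regulatory factors (GAAANNGAA), the composite Ets-IRF element (GGAANNGAA) and a motif of PU.1 (GAGGAAGT). The Ets-IRF letters occurred in the Cd209a window at 2 places, starting at -152 and -8 from the gene start, and in no other member. They are found in 8.22% of 32544 promoters of the same length. The interferon-stimulated letters were found in the Clec9a window, starting at -2, and in 8.53% of all promoters. The AP-1 letters were found in Zbtb46 alone among the members (at -61) and in 7.79% of all promoters, and the PU.1 letters in none of the 10 and in 3.11% of all. The Xcr1 window held none of these letters. These matches describe the letters of the windows only.

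The libraries held 1920 to 2675 barcodes, with medians of 3807 and 4330 unique molecular identifiers (UMIs, single counted RNA molecules) per barcode at 1 week and 6210 and 7704 at 15 weeks. After the filters, 6544 cells with a single hashtag were kept, from 64 cells in the sham female to 1554 in the crush 15 week M1 sample, with 247765 to 15288422 UMIs per sample. At 1 week the PSNL female, PSNL male and sham female shared a library, as did the crush female, crush male and sham male, and at 15 weeks PSNL and crush each had a library of its own, with no sham. Injury and library, and time, batch and Cell Ranger version, therefore cannot be told apart, beyond what the 2 sham samples allow. Barcodes with several hashtags made up 26.9% and 29.6% of the crush and PSNL libraries at 1 week and 1.85% and 5.72% at 15 weeks, and were left out. Any pair of libraries shared 1 to 3 barcodes. Xist was at 767 CPM (counts scaled to a total of 1e+06) or more in females and 1.39 CPM or less in males, while Ddx3y was at 1.35 CPM or less in females and 58.9 CPM or more in males. S100a8, a neutrophil gene, was at 161 to 5475 CPM at 1 week and 4.32 to 114 CPM at 15 weeks.

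Where the members were found was read from 28 clusters of the 6544 cells, made without the 10 members and without any marker gene, and then named from markers. Dendritic-like cells were the 843 cells of 3 clusters. Cluster 0 (510 cells, nearly all from 1 week, led by H2-Oa, Ifitm1, Klrd1, Cd7 and Cd209a) and cluster 15 (198 cells, from 15 weeks, led by Itpr1, Gm16553, Tnfsf9, Nr4a2 and Bcl11a) were cDC2-like. Cluster 21 (135 cells, led by Ccl22, Ccr7, Fscn1, Il4i1 and Ccl5) was migratory DC-like, a state in which dendritic cells leave the tissue. When the 843 cells were clustered alone, 49 of them formed a cDC1-like sub-cluster with 11 of 12 cDC1 markers, led by Irf8, Xcr1, Rab7b, Tlr3 and Clec9a. The same 49 cells came together at each of the 3 resolutions tried. A further cluster of 109 cells (57 of 1652 PSNL and 52 of 2381 crush cells at 15 weeks, 0 at 1 week) scored highest for cDC2 markers but held only 4 of them, below the minimum of 5 that was set after the clusters were seen, and it stayed unnamed.

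Xcr1 and Clec9a, the receptors that define cDC1, had their highest levels in the 49 cDC1-like cells. Xcr1 was at 239 CPM there (95% Poisson interval 194 to 292, for counting error only, as for all intervals and floors here), 1.62 CPM in cDC2-like cells and 0.260 CPM in the 4854 cells outside the named classes. These 49 cells, 0.749% of all cells, held 68.1% of all Xcr1 UMIs. Clec9a was at 257 CPM (210 to 311) in cDC1-like cells, 11.3 CPM in cDC2-like cells and 1.41 CPM in the other cells. The cDC1-like cells held 39.2% of its UMIs. At 1 week, 46 cDC1-like cells held 79.1% of the Xcr1 and 62.1% of the Clec9a UMIs. At 15 weeks, 3 cDC1-like cells held 29.0% and 11%, while cDC2-like cells held 33.9% of the Clec9a UMIs and a cluster of cycling cells 38.7% of the 31 Xcr1 UMIs.

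Of the 50 cells with an Xcr1 UMI, 38 also had a Clec9a UMI, 47 a Wdfy4 UMI, 41 an Irf8 UMI and 36 a Batf3 UMI, whereas 4 had a Cd209a UMI and 5 an Irf4 UMI. Over all 6544 kept cells, 146 had a Clec9a UMI, 2824 a Wdfy4 UMI, 3729 an Irf8 UMI and 1841 a Batf3 UMI. A Cd209a UMI was found in 816 of them and an Irf4 UMI in 686. Cells with Xcr1 thus held the other genes of the cDC1 programme more often than all cells did. Cd209a was slightly rarer in them than over all cells, and Irf4 about as frequent. Of the 146 cells with a Clec9a UMI, 38 (26.0%) had an Xcr1 UMI, 46 (31.5%) a Cd209a UMI, 94 an Irf8 UMI and 111 a Wdfy4 UMI. The share of cells with an Xcr1 UMI was 55.1% in cDC1-like cells (median of 7458 UMIs per cell) and 0.287% in neutrophil-like cells (median 1988), which should lack it. With each cell thinned to 2000 UMIs, the shares were 36.2% of 47 cDC1-like cells and 0% of 169 neutrophil-like cells.

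Irf8, which directs cDC1 development and is also a gene of monocytes and macrophages, reached its highest level in cDC1-like cells, at 1650 CPM (1526 to 1780). In migratory DC-like cells it was at 228 CPM and in cDC2-like cells at 30.3 CPM, below the 235 CPM of the other cells. Because those other cells were so many, they held 83.7% of all Irf8 UMIs. In thinned cells, 91.5% of cDC1-like and 8.88% of neutrophil-like cells had an Irf8 UMI.

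Wdfy4, the gene of the cross-presentation protein, was at 817 CPM in cDC1-like cells, 224 CPM in cDC2-like cells and 7.09 CPM in migratory DC-like cells. The other cells were at 103 CPM and held 67.9% of its UMIs, so a level over all cells is mostly not that of dendritic cells. A cluster of 71 cycling cells, led by the division genes Top2a and Mki67, was at 314 CPM.

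Batf3, the partner of Irf8 in cDC1, was at 229 CPM in cDC1-like and 144 CPM in migratory DC-like cells, against 69.6 CPM in cDC2-like cells. The other cells were at 63.1 CPM and held 76.9% of its UMIs. Among them was a cluster of 82 cells from 15 weeks, led by Lyz1 and Retnla, with 229 CPM of Batf3, the level of the cDC1-like cells. A cluster of 236 cells led by Retnla and Ear2, mostly from 1 week, was at 153 CPM. Flt3 was at 0 and 1.14 CPM in these 2 clusters, so that receptor did not mark them as dendritic. Other members went the other way. Zbtb46 (23.6 and 16.0 CPM), Cd209a (79.1 and 73.5 CPM) and Irf4 (158 and 54.7 CPM) were above the level of the other cells as a whole. Zbtb46 and Cd209a were below the cDC2-like clusters 0 (44.3 and 967 CPM) and 15 (172 and 962 CPM).

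Cd209a was the member most confined to cDC2-like cells, with 1041 CPM there (1012 to 1070) against 22.4 CPM in migratory DC-like, 27.4 CPM in cDC1-like and 22.8 CPM in the other cells. The 659 cDC2-like cells, 10.1% of all cells, held 79.5% of its UMIs. Irf4 was at 91.6 CPM in cDC2-like, 2.49 CPM in cDC1-like and 18.7 CPM in the other cells, which held 58.5% of its UMIs.

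Flt3 and Zbtb46 were high in all 3 dendritic classes. Flt3 was at 192 CPM in cDC1-like, 204 CPM in cDC2-like and 125 CPM in migratory DC-like cells, against 6.56 CPM in the other cells. Zbtb46 was at 72.3, 102 and 75.6 CPM in the same 3 classes and at 5.80 CPM in the other cells. Some resident macrophage clusters among the other cells were higher. The cluster led by Cd209f, Ednrb and Lyve1 was at 46.6 CPM of Zbtb46, and that led by Cd163 and Rad51b at 34.7 CPM. The cDC2-like cluster 0 was at 44.3 CPM and cluster 15 at 172 CPM. Neither gene told the dendritic classes apart as Irf8, Irf4, Cd209a, Xcr1 and Clec9a did. Il12b had 10 UMIs in 3 cells, all of them in the migratory DC-like class (11.8 CPM). When these cells were clustered again, 9 of the UMIs fell in sub-cluster 4. The other 1 fell in sub-cluster 9, which was led by Arg1 and Spp1.

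**Figure D1:**
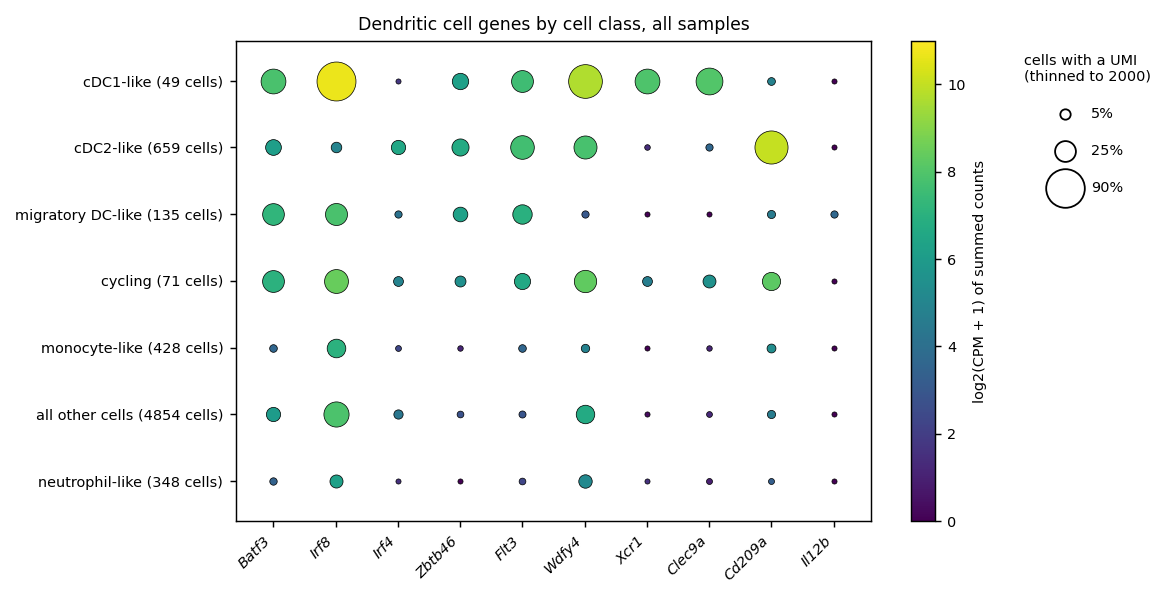
Level of each member (colour, log2 of CPM plus 1 of counts summed over all cells of a class) and share of cells with at least 1 UMI after thinning to 2000 UMIs (size) in 7 cell classes. Irf8, Wdfy4, Xcr1 and Clec9a are highest in the row of cDC1-like cells, Cd209a in that of cDC2-like cells, and Il12b is seen in migratory DC-like cells alone.

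Of the 10 sub-clusters of the dendritic-like cells, the one with the most Irf8 had the least Irf4, and the one with the most Irf4 had little Irf8. Sub-cluster 8, the cDC1-like cells, had 1650 CPM of Irf8 and 2.49 CPM of Irf4. Sub-cluster 0, cDC2-like cells of the 15 week libraries, had 5.54 CPM of Irf8 and 183 CPM of Irf4, and sub-cluster 6, also from 15 weeks, had 2.45 and 96.7 CPM. Among the others the order was not strictly opposite, since sub-cluster 7, at 43.3 CPM of Irf8 and 23.1 CPM of Irf4, was below sub-cluster 1 (84.7 and 34.8 CPM) in both. Sub-clusters 0 and 6 came from the 15 week libraries, which had more UMIs per barcode.

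**Figure D2:**
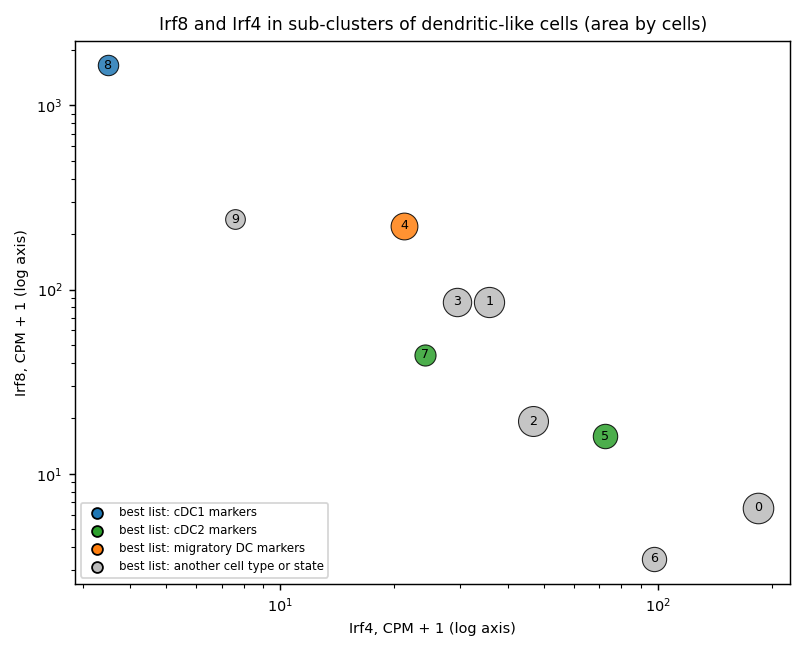
Irf8 against Irf4 (CPM plus 1 of summed counts, both axes logarithmic) in the 10 sub-clusters of the 843 dendritic-like cells, with the area of a point by its number of cells and the colour by the marker list that scored highest. Sub-cluster 8 stands alone at the top left with 1650 CPM of Irf8, and sub-clusters 0 and 6 sit at the bottom right with 183 and 96.7 CPM of Irf4.

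Within cDC2-like cells, the levels of the factors were read from the cells of each condition pooled, without a test over samples. The sham values rest on 20 cells. The PSNL cells include sub-cluster 1, which carried monocyte markers. Irf4 was at 30.5 CPM in sham, 40.4 in PSNL and 41.5 in crush cells at 1 week, and at 151 and 149 CPM in PSNL and crush cells at 15 weeks. Zbtb46 followed the same order, with 18.3, 32.0 and 48.3 CPM at 1 week and 182 and 160 CPM at 15 weeks. Irf8 in these cells was at 0 CPM in sham, 96.0 in PSNL and 36.9 in crush at 1 week, and at 9.20 and 4.52 CPM at 15 weeks. Cluster 0 holds the cells of 1 week and cluster 15 those of 15 weeks, and time and batch cannot be told apart.

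Not every cell under these names was dendritic by its leading genes. Sub-cluster 1 (118 cells, of which 73 were from PSNL at 1 week) had more monocyte than cDC2 markers among its 10 leading genes. Sub-cluster 3 (103 cells, 99 of them from crush at 1 week) was led by Apoe and C1qc, with 4 macrophage markers and none of its own class. Sub-cluster 9 (45 cells, 43 from PSNL at 1 week) was led by Arg1 and Spp1, with 2 injury macrophage markers. Cd209a was nonetheless at 1021 and 954 CPM in sub-clusters 1 and 3, and at 56.1 CPM in sub-cluster 9. Shares at 1 week and tests within dendritic-like cells are therefore also given without these 3 sub-clusters, which are called mixed here.

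Dendritic-like cells were most frequent after crush at 1 week. They made up 36.3% of the crush female, 41.0% of the crush male, 14.9% and 17.8% of the PSNL samples and 15.6% and 20.8% of the sham samples. At 15 weeks they made up 3.47, 8.06, 7.12 and 5.56% of the PSNL samples and 7.39, 3.53 and 3.54% of the crush samples. The crush samples at 1 week lay above all 11 others, and PSNL and sham overlapped. PSNL and crush differed at 1 week (log2 difference -1.24, SE 0.488, adjusted p = 0.0431, edgeR on cell counts with each sample's total of kept cells as its size). The call was lost in 9 of the 13 fits that each left out a sample, namely any PSNL or crush sample of 1 week, crush F2 or M1, or PSNL F2, M1 or M2 of 15 weeks, with differences from -1.38 to -1.12. Without the 3 sub-clusters led by other markers, the means were 9.01 ± 0.477% in PSNL and 29.8 ± 4.21% in crush (SD, n = 2 each; log2 difference -1.72, adjusted p = 0.0243).

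The difference in share moved with other cell types. Neutrophil-like cells made up 22.7 ± 10.1% of PSNL cells, 3.12% of crush cells and 7.39% of sham cells at 1 week, and monocyte-like cells 25.1%, 4.03% and 0.943%. The neutrophil-like cells are those that remained although the sort left out Ly6G+ cells at this time. They made up 29.9% of the PSNL female and 15.6% of the PSNL male. The summed level of the 9 neutrophil markers was 4851 to 14084 CPM in PSNL, 1035 to 2028 CPM in crush and 492 to 3594 CPM in sham samples. With the neutrophil-like cells left out of the totals, the difference was -0.918 and no longer called (adjusted p = 0.259). At the coarser clustering it was -1.35 with an adjusted p of 0.0989.

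By class, cDC2-like cells made up 9.34 ± 0.0850% in PSNL, 32.0 ± 5.49% in crush and 11.3 ± 2.71% in sham at 1 week. PSNL was below crush (log2 difference -1.77, SE 0.589, adjusted p = 0.0205, and 0.104 without neutrophil-like cells). Against sham, the PSNL difference was -0.28 (SE 0.601) and was not called. The call of PSNL against crush was also lost without the crush male, the PSNL female or the PSNL male (adjusted p = 0.0949 to 0.242). Without the mixed sub-clusters the shares were 4.15 ± 0.737% in PSNL and 22.5 ± 2.48% in crush (-2.42, SE 0.797, adjusted p = 0.0150), with 5.55 ± 0.896% in sham. The cDC1-like cells numbered 12 and 20 in the crush samples, 5 and 8 in the PSNL samples, and 0 of 64 and 1 of 106 in the sham samples, where the count of 0 allows a share of up to 4.69%. Their shares of 3.47 ± 0.226% in crush and 0.928 ± 0.0166% in PSNL did not overlap, but the test did not call the difference (-1.87, SE 0.927, adjusted p = 0.157). At 15 weeks 3 cDC1-like cells were found among 4033, of which 2 were from PSNL. Migratory DC-like cells made up 6.04 ± 2.16% of PSNL and 3.17 ± 1.92% of crush cells at 1 week, and those ranges overlapped (0.95, SE 1.26, adjusted p = 0.971). Without the mixed sub-clusters they were 3.85 ± 0.262% and 3.41 ± 1.93%, a log2 difference of 0.19 (SE 1.2, adjusted p = 1). No dendritic share was called between either injury and sham at 1 week or between PSNL and crush at 15 weeks.

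**Figure D3:**
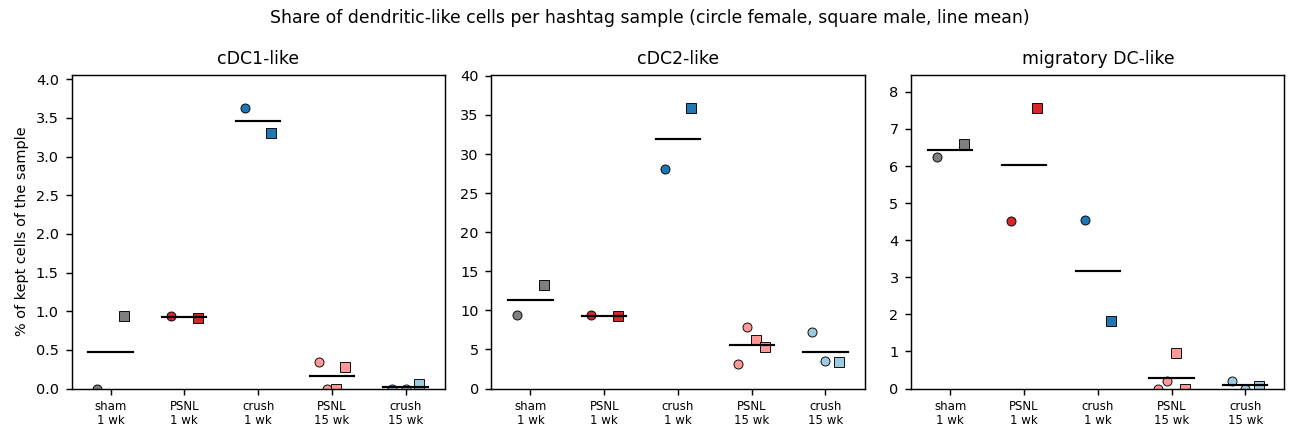
Percent of the kept cells of each hashtag sample in the cDC1-like, cDC2-like and migratory DC-like classes (circles female, squares male, lines group means; the vertical scales differ). Both crush samples at 1 week are above all others for cDC1-like (mean 3.47%) and cDC2-like cells (32.0%), but not for migratory DC-like cells.

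The levels below are TMM-normalised CPM of counts summed over all kept cells of a hashtag sample, and a difference is the log2 ratio fitted by edgeR with its adjusted p over 11482 genes. In such sums, fewer cells of a type and less RNA per cell cannot be told apart. Il12b was too low to be tested, so 9 members were. Between PSNL and crush at 1 week, 5 of the 9 members were called, all lower in PSNL, against 12.5% of all genes called in either direction. Between PSNL and sham 1 member was called (5.21% of all genes), and between crush and sham 1 member (0.165%). Between PSNL and crush at 15 weeks no member was called (0% of genes, with 553 genes and 1 member at an unadjusted p under 0.05 and 8 genes called by DESeq2). A fit on the 1 week samples with the library as a term, which leaves the sham samples alone to link the libraries, called 10 genes and 0 members between PSNL and crush.

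**Figure D4:**
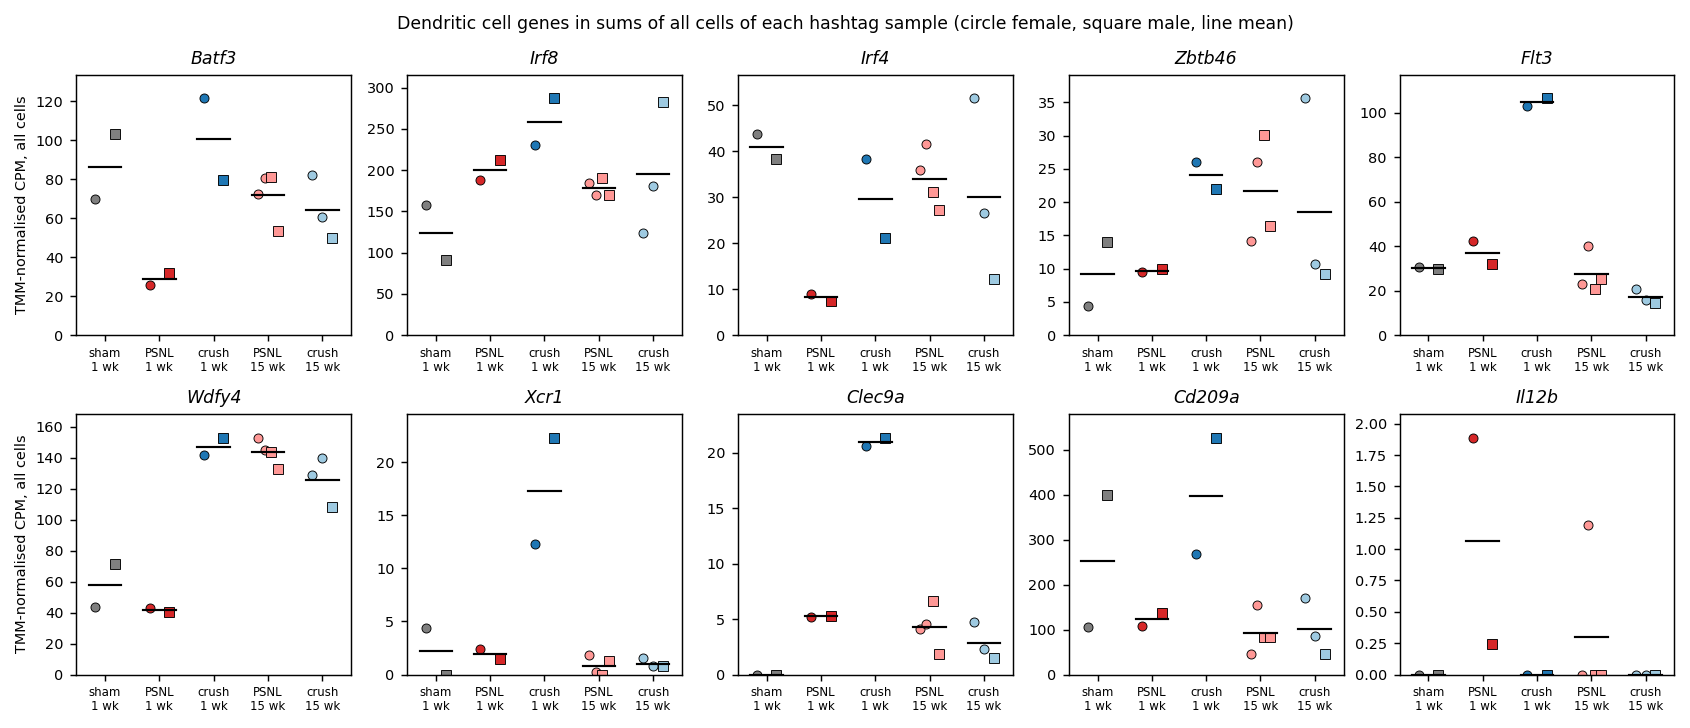
TMM-normalised CPM of each member in sums of all kept cells of the 13 hashtag samples (circles female, squares male, lines group means; the vertical scales differ). At 1 week both crush samples (blue) lie above both PSNL samples (red) for every member but Il12b, and at 15 weeks (pale colours) the samples of PSNL and crush overlap.

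Batf3 (ENSMUSG00000026630, chr1:191097847-191108945) was lower after PSNL than in the other groups of 1 week. Its level was 69.9 CPM in the sham female and 103 CPM in the sham male, 25.5 and 31.8 CPM in PSNL, and 122 and 79.7 CPM in crush. At 15 weeks it was 72.4, 80.7, 81.3 and 53.7 CPM in PSNL samples and 82.0, 60.4 and 49.6 CPM in crush. The PSNL samples of 1 week were the lowest of all 13, and the other groups overlapped. PSNL was lower than crush (-1.79, SE 0.30, adjusted p = 0.00321) and lower than sham (-1.64, SE 0.343, adjusted p = 0.0182), whereas crush and sham differed by 0.15. The call against crush held with each sample left out in turn. The call against sham was lost without the sham male, the PSNL female or the PSNL male.

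Wdfy4 (ENSMUSG00000051506, chr14:32959547-33185508, - strand), the cross-presentation gene, was raised after crush. At 1 week the sham samples had 43.7 and 71.7 CPM, the PSNL samples 43.0 and 40.3 CPM and the crush samples 142 and 153 CPM. At 15 weeks the levels were 153, 145, 143 and 133 CPM in PSNL and 129, 140 and 108 CPM in crush. Both PSNL samples of 1 week lay below both sham samples, and every sample of crush at 1 week and of either injury at 15 weeks lay above them. The difference between PSNL and crush at 1 week was -1.83 (SE 0.183, adjusted p = 0.000255) and held with each sample left out. Crush was above sham (1.27, SE 0.212, adjusted p = 0.0474), a call lost with RLE in place of TMM scaling (adjusted p = 0.0658) and without the crush male, the sham female, or any of the PSNL samples of either time (0.0603 to 0.345).

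Flt3 (ENSMUSG00000042817, chr5:147330741-147400489, - strand), the growth factor receptor of dendritic cells, was at 30.6 and 29.7 CPM in sham, 42.5 and 31.8 CPM in PSNL and 103 and 107 CPM in crush at 1 week. By 15 weeks Flt3 had levels of 23.0, 40.2, 20.7 and 25.4 CPM in PSNL and 20.9, 15.8 and 14.5 CPM in crush. The crush samples of 1 week stood above all others, and those of 15 weeks were among the lowest. PSNL was lower than crush at 1 week (-1.51, SE 0.286, adjusted p = 0.00634; 0.0858 without the PSNL male). Crush was 1.81 above sham without passing the test (SE 0.372, adjusted p = 0.0721), which it passed with HTODemux (0.0493), DESeq2 (0.0139), sex as a term (0.0440) or no low-count filter (0.00574). At 15 weeks Flt3 was the member with the smallest unadjusted p between PSNL and crush (0.69, SE 0.228), with an adjusted p of 0.968 in edgeR over all genes.

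Xcr1 (ENSMUSG00000060509, chr9:123852315-123862029, - strand), the chemokine receptor of cDC1, had 25 and 73 UMIs in the crush samples at 1 week, 5 and 6 in the PSNL samples, and 1 and 0 in the sham samples. That was 12.3 and 22.3 CPM in crush, 2.36 and 1.45 CPM in PSNL and 4.37 and 0 CPM in sham. At 15 weeks, 5, 1, 0 and 4 UMIs were found in PSNL and 7, 2 and 12 in crush, at most 1.86 CPM. The crush samples of 1 week were above all others. PSNL was lower than crush at 1 week (-3.25, SE 0.813, adjusted p = 0.0222), a call lost without the crush male, the PSNL female or the PSNL male.

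Clec9a (ENSMUSG00000046080, chr6:129408862-129424763), the dead cell receptor of cDC1, had 42 and 70 UMIs in crush, 11 and 22 in PSNL and 0 and 0 in sham at 1 week. In CPM these were 20.7 and 21.4 in crush and 5.20 and 5.31 in PSNL. At the later time it was at 4.09, 4.52, 6.62 and 1.86 CPM in PSNL and 4.75, 2.31 and 1.5 CPM in crush. Crush at 1 week was at least 5.54-fold higher than sham, taking 3 counts over both sham samples as the limit, but the edgeR test did not call it (adjusted p = 0.121, and 0.0125 without the low-count filter). PSNL was lower than crush (-1.99, SE 0.534, adjusted p = 0.0328), a call that was lost when any of these 4 samples was left out (adjusted p = 0.0854 to 0.184).

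Irf4 (ENSMUSG00000021356, chr13:30749226-30766976), the factor tied to cDC2, was lowest after PSNL at 1 week. The sham samples had 43.7 and 38.5 CPM, against 8.98 and 7.48 CPM in PSNL and 38.4 and 21.1 CPM in crush. The later samples had 36.0, 41.7, 31.2 and 27.3 CPM in PSNL and 51.6, 26.6 and 12.2 CPM in crush. The 2 PSNL samples were below the other 11, yet neither comparison passed the test (PSNL against crush -1.85, SE 0.582, adjusted p = 0.0566, and PSNL against sham -2.31, SE 0.712, adjusted p = 0.0790). Both passed it without crush F1 or without crush M1 of 15 weeks, the samples that spread the crush group most (adjusted p = 0.00819 to 0.0247). Both also passed it with HTODemux, DESeq2, sex as a term, no low-count filter or without the dendritic-like clusters (adjusted p = 0.00514 to 0.0477).

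Irf8 (ENSMUSG00000041515, chr8:120736358-120756694), the factor of cDC1 and of monocytes, was at 157 and 90.9 CPM in sham, 189 and 213 CPM in PSNL and 231 and 287 CPM in crush at 1 week. Later levels were 185, 170, 190 and 170 CPM in PSNL and 124, 181 and 282 CPM in crush. The 3 groups of 1 week did not overlap, but no comparison was called (PSNL against crush -0.37, SE 0.307, adjusted p = 0.479; crush against sham 1.13, SE 0.350, adjusted p = 0.231).

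Zbtb46 (ENSMUSG00000027583, chr2:181387762-181459426, - strand), the transcription factor of conventional dendritic cells, was at 4.37 and 14.0 CPM in sham, 9.45 and 9.89 CPM in PSNL and 26.1 and 22.0 CPM in crush at 1 week. After 15 weeks it was at 14.1, 26.0, 30.1 and 16.4 CPM in PSNL and 35.6, 10.8 and 9.22 CPM in crush. The groups of 15 weeks overlapped widely. PSNL was 1.30 below crush at 1 week (SE 0.611, adjusted p = 0.188), and this turned to 0.27 above with the library as a term. Without crush F1 of 15 weeks it was called (-1.30, adjusted p = 0.0372).

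Cd209a (ENSMUSG00000031494, chr8:3743397-3748984, - strand), the lectin of cDC2-like cells, was at 105 and 400 CPM in sham, 108 and 137 CPM in PSNL and 268 and 527 CPM in crush at 1 week. At 15 weeks it was at 45.3, 155, 84.1 and 83.5 CPM in PSNL and 170, 85.5 and 46.0 CPM in crush. The male was above the female in each group of 1 week, and the sham samples ranged from the level of PSNL to that of crush. No comparison between groups of the same time was called (PSNL against crush at 1 week -1.69, SE 0.658, adjusted p = 0.115), although without the low-count filter PSNL against crush was (-1.72, adjusted p = 0.0153). With the library as a term that difference was 0.14.

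Il12b (ENSMUSG00000004296, chr11:44400063-44414033), the cytokine subunit, had 4 UMIs in the PSNL female and 1 in the PSNL male at 1 week, 5 in the PSNL F2 sample at 15 weeks and 0 in the other 10 samples. With 10 UMIs in 3 cells, a difference between conditions was not detectable at this depth.

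The differences of 1 week were then sought among dendritic-like cells alone, summed per hashtag sample with at least 10 such cells (6903 genes tested). No member was called between PSNL and crush at 1 week (0.855% of genes called, 2 members at an unadjusted p under 0.05), PSNL and sham (0.0869%, 2 members), crush and sham (0% of genes, 728 genes and 3 members at an unadjusted p under 0.05) or PSNL and crush at 15 weeks (0%, 263 genes and 0 members). Wdfy4 had the smallest p between PSNL and crush at 1 week (-1.31, SE 0.480, adjusted p = 0.216). In cDC2-like cells alone, a fit without the sham female and the PSNL F1 sample of 15 weeks, which had fewer than 10 such cells, Wdfy4 was at 93.8 and 72.8 CPM in PSNL and 230 and 201 CPM in crush and was called (-1.39, SE 0.287, adjusted p = 0.0243). Without the mixed sub-clusters that call was lost, with a similar difference (-1.46, SE 0.362, adjusted p = 0.0834, a fit without both sham samples and the PSNL F1 sample of 15 weeks, which had fewer than 10 such cells). Over all dendritic-like cells without them, 0 members were called in the 4 comparisons, with Wdfy4 at -1.01 (adjusted p = 0.226) in PSNL against crush at 1 week. Of the cDC2-like sub-clusters with most of their cells from PSNL, the mixed sub-cluster 1, with monocyte markers, had 65.0 CPM of Wdfy4. Sub-cluster 7, which was not mixed (36 of 53 cells from PSNL), had 80.9 CPM. Of those with most cells from crush, sub-cluster 2 (102 of 116 cells) had 298 CPM and sub-cluster 5 (58 of 74) had 216 CPM. The mixed sub-cluster 3 (99 of 103) had 160 CPM. The part of these sub-clusters in the difference was not tested. In the same class Irf8 was higher in PSNL by 1.49 without passing the test (SE 0.415, adjusted p = 0.0871).

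In the 32 cDC1-like cells of crush and the 13 of PSNL at 1 week, Irf8 was at 1665 and 2364 CPM, Wdfy4 at 600 and 926 CPM, Batf3 at 203 and 364 CPM and Clec9a at 269 and 281 CPM. Xcr1 was at 295 CPM in crush and 116 CPM in PSNL. Zbtb46 was at 66.3 CPM (18 UMIs) in crush and 33.1 CPM (2 UMIs) in PSNL. Irf4 had 1 UMI in crush and 0 in PSNL. The cells were too few for a test over samples.

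Cells outside the dendritic-like clusters carried part of the differences. With the 3 clusters left out, Batf3 was at 54.9 and 103 CPM in sham, 10.8 and 20.4 CPM in PSNL and 118 and 66.2 CPM in crush at 1 week. PSNL remained lower than crush (-2.49, SE 0.389, adjusted p = 0.00233) and than sham (-2.37, SE 0.455, adjusted p = 0.0105). Wdfy4 was at 30.0 and 27.2 CPM in PSNL and 81.7 and 81.4 CPM in crush (-1.52, SE 0.199, adjusted p = 0.000801). Irf4 was at 4.53 and 2.96 CPM in PSNL, 28.3 and 16.8 CPM in crush and 54.9 and 30.2 CPM in sham, and both differences passed the test (-2.62, adjusted p = 0.0448, and -3.45, adjusted p = 0.0413). Flt3 and Clec9a were no longer called (adjusted p = 0.0642 and 0.0674). Monocyte-like and neutrophil-like cells, with 11 and 9.68 CPM of Batf3, are among these cells and were more frequent in PSNL, and their part in the differences was not tested.

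**Figure D5:**
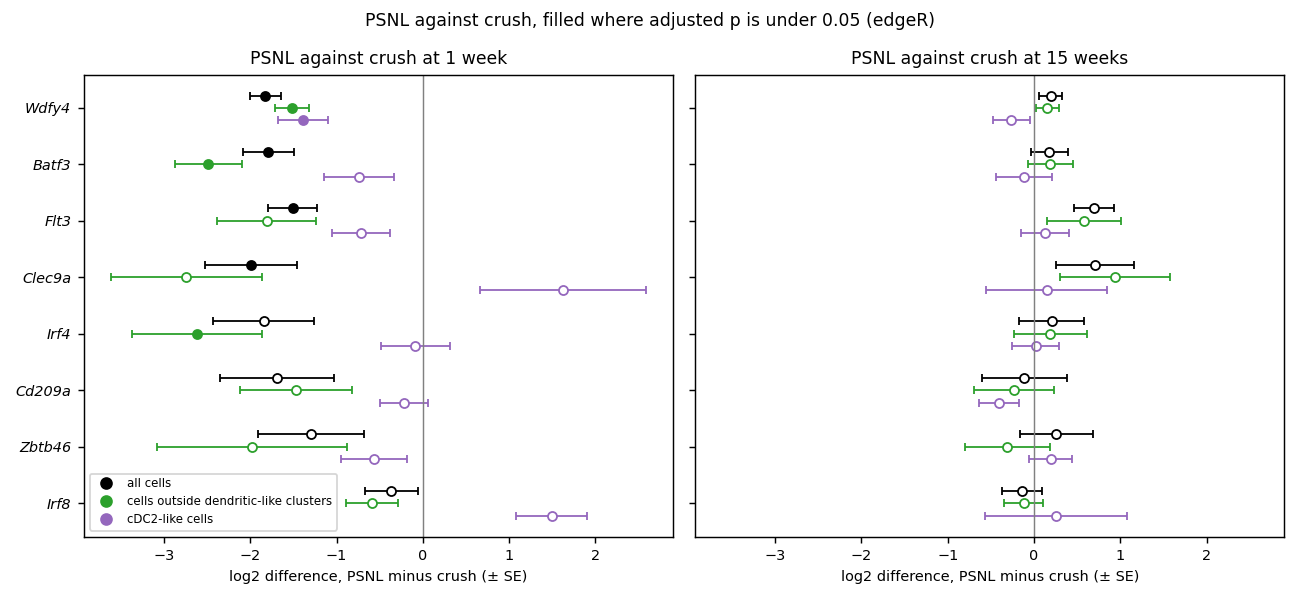
Log2 difference between PSNL and crush (with SE) for the 8 members tested in all 3 sets of cells, at 1 week on the left and 15 weeks on the right, in all cells, in cells outside the dendritic-like clusters and in cDC2-like cells (filled where the adjusted p is under 0.05). At 1 week Wdfy4 is filled in all 3 sets, Batf3 in 2, Flt3 and Clec9a in all cells only and Irf4 outside the dendritic-like clusters only, and nothing is filled at 15 weeks.

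Members also changed between 1 and 15 weeks. After PSNL, Wdfy4 rose by 1.79 on the log2 scale (SE 0.167, adjusted p = 3e-06), Irf4 by 2.07 (SE 0.523, adjusted p = 0.00473) and Batf3 by 1.32 (SE 0.270, adjusted p = 0.00120), 3 of 9 members beside 56.3% of all genes called. The Irf4 call was lost without the PSNL male of 1 week (adjusted p = 0.0623). After crush, Xcr1 fell by 4.10 (SE 0.703, adjusted p = 0.000643), Clec9a fell by 2.96 (SE 0.479, adjusted p = 0.000560), Flt3 fell by 2.63 (SE 0.258, adjusted p = 8.97e-06) and Cd209a fell by 1.99 (SE 0.580, adjusted p = 0.0152), 4 of 9 members beside 42.6% of all genes. The Cd209a call was lost without the crush male of 1 week (adjusted p = 0.153). With so many genes called between the libraries, these counts are not above the background, and time and batch cannot be told apart. The PSNL minus crush difference itself changed between the times for Wdfy4 (2.02, SE 0.224, adjusted p = 0.000846), Flt3 (2.2, SE 0.366, adjusted p = 0.00560), Batf3 (1.97, SE 0.369, adjusted p = 0.00948) and Clec9a (2.70, SE 0.700, adjusted p = 0.0385), 4 of 9 members beside 7.72% of all genes. That change was not called for Irf4 (2.05, adjusted p = 0.0906, but 0.0145 to 0.0413 with HTODemux, DESeq2, sex as a term or no low-count filter), Xcr1 (2.79, adjusted p = 0.176) or Cd209a (1.58, adjusted p = 0.259). The Clec9a call was lost in 8 of the 13 fits that left out a sample, those without any PSNL or crush sample of 1 week, without crush M1, or without PSNL F1, F2 or M1 of 15 weeks (adjusted p = 0.0565 to 0.163).

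Other genes of the same pathways were taken from 4 lists and read from the sums of all kept cells. In these sums PSNL at 1 week held more neutrophil-like and monocyte-like cells than crush, and their part was not tested. Of 17 tested transcription factors of dendritic cells, 3 were higher and 2 lower in PSNL than in crush at 1 week. Of all genes 12.5% were called (median log2 difference -0.06, all genes -0.02). Nfil3, which acts early in cDC1 development, was higher by 2.2 and Zeb2, which restrains cDC1, by 0.73, while Bcl11a and Cbfa2t3, factors of early dendritic cell development, were lower (-1.30 and -1.36). None of the 17 was called between PSNL and sham (5.21% of all genes) or between crush and sham (0.165%). Of 8 tested growth factor receptors, 1 was higher and 1 lower in PSNL than in crush at 1 week, beside 12.5% of all genes called. Csf2rb2, a receptor chain for GM-CSF family cytokines of which mice carry a close copy, Csf2rb, was higher (1.63). Kit, the receptor of stem cell factor, was lower (-1.24).

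Of 24 genes of MHC class I and cross-presentation, none was called between PSNL and crush at 1 week (12.5% of all genes), in contrast to Wdfy4. Against sham, PSNL was higher for the class I genes B2m (1.11), H2-K1 (0.78) and H2-D1 (0.62). These were 3 of 24, beside 5.21% of all genes called, with a list median of 0.43 beside 0.10 for all genes. The H2 genes among them, H2-K1 and H2-D1, are near-identical to each other, so their counts may be shared. From 1 to 15 weeks, 17 of the 24 fell and 1, Rab43 (a vesicle gene of cross-presentation), rose by 2.63 in PSNL, and 16 fell and 1 rose in crush, with medians of -0.85 and -0.69 beside 0.03 and 0.01 for all genes, of which 56.3% and 42.6% were called. Of 8 genes of the IL-12 family and co-stimulation, 2 were higher in PSNL than in crush at 1 week, beside 12.5% of all genes called. They were Cd86 (1.03) and Cd80 (1.55), the co-stimulatory ligands of T cells, and the list median was 0.89. No gene of the 4 lists was called between PSNL and crush at 15 weeks.

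The genes most like each member were read from the correlation of log2(CPM + 1) over the 28 clusters, given as a description since clusters share libraries and depth. Xcr1 was closest to Gcsam (r = 0.914), Sept3 (0.890) and Epcam (0.886), Cd209a to Cbfa2t3 (0.858), Kbtbd11 and Clec10a, and Flt3 to H2-Oa (0.862), St8sia1 and Kctd14. Clec9a was closest to Mycl (0.808), Irf4 to Fndc7 (0.878), Zbtb46 to Gfra2 (0.805), Irf8 to Trim35 (0.832), Batf3 to H2-DMb1 (0.872) and Wdfy4 to Phactr2 (0.868). Among the members, r was 0.749 for Flt3 and Clec9a, 0.720 for Xcr1 and Clec9a, 0.684 for Zbtb46 and Cd209a and -0.341 for Irf8 and Irf4. Il12b, found in 3 cells, was not compared.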

How the data were processed

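The files that the authors deposited give unnormalised UMI counts for genes and hashtag antibodies in the barcodes that Cell Ranger called cells. In the submitters' processing notes the tools are Seurat 5.1.0 and Cell Ranger 6.0.0, with GRCm38 as the build. The matrix headers name version 7.0.0 for the 15 week libraries and 6.0.0 for those of 1 week. An unlabelled hashtag with 110 UMIs was not used.

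Barcodes were given to hashtags by the valley between low and high counts. Of 9133 barcodes, 7744 had at least 500 genes and under 10% mitochondrial counts, and 6544 with a single hashtag were kept (1155 had several, 45 none). HTODemux (Seurat 5.3.0), an alternative, gave the same sample for 95.8% of these. Depth per sample is given with the data above and limits the low members most.

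Cells were clustered in scanpy 1.11.5 (Python 3.11.15) by Leiden (resolution 2.0, alternative 1.0, leidenalg 0.10.2) on 15 neighbours, 30 components and 2000 variable genes, without members and marker genes. Clusters were named by their best marker list, with at least 5 of its markers found in 20% of cells, so names are rebuilt and need not match the study's. Scrublet did not work as a doublet caller, and leaving out its top 6% was an alternative.

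Counts summed per hashtag sample entered edgeR's quasi-likelihood test (version 4.0.16, R 4.3.3), all 13 samples in 1 fit, with filterByExpr (11482 genes), TMM and Benjamini-Hochberg adjustment, calling an adjusted p under 0.05. Cell counts per class were tested in edgeR likewise. Other alternatives were DESeq2 1.42.0, RLE factors, no low-count filter, a stricter cell filter, sex or library as a term, a hashtag margin and leaving out each sample. The scripts were tested on simulated data with known changes. In the comparisons of 1 week over all cells, 11.5 to 19.8% of 2-fold and 56.7 to 81.8% of 4-fold changes were called. Within dendritic-like cells (PSNL against crush at 1 week) these were 8.16% and 75.3%. A member that was not called may therefore still differ by 2-fold. Named genes are the members, up to 4 called genes per list and comparison, the 3 genes most like each member, and the leading genes of clusters. Of these, the text prints a choice made after their values were seen. Members, lists and alternatives were chosen with earlier results of these data known, and the naming rule, the sub-clusters and the exclusion of mixed sub-clusters were set after seeing the data.

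No pair of replicates agreed within counting error (chi-squared divided by its degrees of freedom 4.40 to 45.1). Numbers at 15 weeks did not pair the samples. Gene positions are those of GENCODE M21, and promoters are RefSeq's (10 of 10 members matched).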

Additional observations from a re-analysis of the deposited data

Results flagged for a closer look

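In 24 groups of 4 samples, Dixon's test at its 95% critical value marked 3 values as far from the rest. Chance marks about 1 in 20, a rate that does not hold for groups made up mostly of 0 values. Il12b in all cells was at 1.19 CPM in PSNL F2 at 15 weeks and at 0 in the other 3 samples, and in dendritic-like cells it was at 8.92 CPM against 0. Both values are the same 5 UMIs, and with 0 in the other 3 samples any count in the remaining sample would be marked. Clec9a in the 10 dendritic-like cells of PSNL F1 at 15 weeks was at 59.5 CPM, against 14.3, 21 and 19.3 CPM in the other samples of the group.

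The difference between PSNL and crush changed between 1 and 15 weeks, by a test of the difference itself in edgeR, for 4 members. The log2 change was 1.97 for Batf3 (adjusted p = 0.00948), 2.2 for Flt3 (0.00560), 2.70 for Clec9a (0.0385) and 2.02 for Wdfy4 (0.000846). In each, PSNL was below crush at 1 week and not at 15 weeks. Time and batch cannot be told apart.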

How the results depend on the processing

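Injury coincides with library, and time with batch, and at 1 week each group had 2 samples. Xcr1, Clec9a and Il12b rest on few UMIs, which limits their precision. With the library as a term at 1 week, 0 members were called in each of PSNL against crush, PSNL against sham and crush against sham, and the cause was not tested. Between PSNL and crush at 1 week 5 members were called, 6 under DESeq2, HTODemux or sex as a term, 7 without the low-count filter, and 3 without the dendritic-like clusters. Leaving out each sample gave 2 to 7, the fewest without the PSNL male, and 3 when either the crush male or the PSNL female was absent. Between PSNL and sham 1 was called, 2 under DESeq2, HTODemux, no low-count filter, sex as a term or without the dendritic-like clusters, and 0 to 2 with samples left out. Between crush and sham 1 was called, 2 under DESeq2, HTODemux or sex as a term, 3 without the low-count filter, and 0 with RLE, a stricter cell filter, a hashtag margin of 3, the top 6% of doublet scores left out or without the dendritic-like clusters. Leaving out samples gave 0 to 1. For the change of the PSNL minus crush difference, 4 were called, 5 under DESeq2, HTODemux, no low-count filter or sex as a term, 2 without the dendritic-like clusters, and 3 to 6 with samples left out. From 1 to 15 weeks, samples left out gave 2 to 4 calls in PSNL and 4 to 6 in crush. Within dendritic-like cells the 0 calls became 3 (crush against sham), 2 (PSNL against crush at 1 week) and 1 (PSNL against sham) with no low-count filter, and 1 (PSNL against crush at 1 week) in cDC2-like cells only, which was 0 without the mixed sub-clusters.

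Over all genes, crush against sham went from 19 calls (8 higher, 11 lower) to 123 with DESeq2 (43 higher, 80 lower), 9 with RLE (1 higher, 8 lower), 153 without the filter, 48 with HTODemux, 50 with sex as a term, 12 with the hashtag margin, 10 without the dendritic-like clusters and 4 without the top doublet scores. The library as a term gave 10 calls between PSNL and crush at 1 week in place of 1439, and 131 between PSNL and sham in place of 598. Between PSNL and crush at 15 weeks the 0 became 8 with DESeq2, 9 without the filter and 2 with sex as a term. Within dendritic-like cells, no filter gave 278 in place of 59 (PSNL against crush at 1 week), 76 in place of 6 (PSNL against sham), 147 in place of 0 (crush against sham) and 28 in place of 0 (15 weeks). HTODemux and cDC2-like cells gave 111 and 98 in place of 59, cDC2-like cells 3 in place of 0 (crush against sham), and the mixed sub-clusters left out 2 in place of 6.

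The share of dendritic-like cells in PSNL against crush at 1 week (-1.24) lost its call at a Leiden resolution of 1.0 (-1.35) and without neutrophil-like clusters (-0.918), and ranged from -1.38 to -1.12 with samples left out. Against sham, PSNL turned from -0.16 to 0.079 without neutrophil-like clusters, and ranged from -0.35 to 0.062 with samples left out (0.062 without the sham male). The ranges were 0.90 to 1.31 for crush against sham and 0.15 to 0.78 at 15 weeks. Of the comparisons of single members, 61 were called under no setting, and 33 of these changed sign under at least 1 alternative. The others that changed sign were Cd209a (0.14) and Zbtb46 (0.27) in PSNL against crush at 1 week with the library as a term, and without the dendritic-like clusters Flt3 from 1 to 15 weeks in PSNL (0.38) and Wdfy4 (0.48) and Zbtb46 (1.23) in crush. Zbtb46 in crush ranged from -1.29 to 0.038 with samples left out, the latter without crush M1 of 15 weeks.

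Replicate numbers are shared by PSNL and crush at 15 weeks (F1, F2 and M1), with correlations of the deviations of -0.051, 0.069 and 0.32 over 6135 genes, so the samples share only a number. A fit with the replicate block called 0 genes, as the fit without it did, and not every sample correlated best with its own number (crush F1 did so with PSNL F2, at 0.297).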

Other observations

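Outside the dendritic-like clusters, the highest Irf8 level of the 28 clusters was 526 CPM, in 28 cells led by the cytotoxic genes Gzma, Nkg7 and Gzmb, where Irf4 was at 0. A cluster of 155 cells led by the interferon-induced genes Ifit2 and Ifit3 was at 352 CPM of Irf8 and 2.96 CPM of Irf4. The cycling cluster of 71 cells, whose second-best marker list was that of cDC1, had 44.6 CPM of Clec9a, 24.3 CPM of Xcr1 and 95.1 CPM of Flt3. For Clec9a and Xcr1 this was below the cDC1-like and above the cDC2-like cells. For Flt3 it was below each dendritic class and above the other cells.

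Irf4 was at its highest level of all 28 clusters, 158 CPM, in 82 cells of the 15 week libraries led by Lyz1 and Retnla, beside 229 CPM of Batf3 and 8.97 CPM of Irf8. Among resident macrophage clusters, one of 156 cells led by Cd209f, Ednrb and Lyve1 had 58.8 CPM of Irf4. Wdfy4 was at 181 CPM in a cluster of 160 cells led by Cxcl13 and Ccl12. These clusters were singled out after their values were seen.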
